A study of Rattus norvegicus with 6 samples.

Results

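The paired miRNAs miR-103 and miR-107 were followed through 6 small RNA libraries of RSC96 cells, an established line of rat Schwann cells, the glia that ensheathe peripheral nerve fibres. Cells had been kept for 48 h in high glucose (3 libraries) or in low glucose (3 libraries, the controls). No other treatment is named, and neither glucose concentration is stated in the labels. The series title concerns Schwann cell exosomes, the labels do not say whether vesicles or whole cells were sequenced, and their extraction text names retina. The reads were chosen by hairpin name alone: every distinct sequence, called a tag, that was listed under the hairpins of rno-mir-103, which has the copies rno-mir-103-1 and rno-mir-103-2, or of rno-mir-107. These were 41 of 9522 tags and 3 of 821 hairpins. Between 15 and 26 of the tags were listed in a high glucose library and 7 to 11 in a low glucose library, and together the 41 carried 5072 reads. Of the 41 tags, 32 were listed under miR-103 only, 4 under miR-107 only, and 5 under both, which form a shared class. Library totals ran from 963706 to 1354456 counts in high glucose and from 114615 to 148143 in low glucose, a 9.31-fold difference of the group means. Tags with a single read are not listed, so an absent tag may have had 1 read.

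A miRNA is cut from a hairpin, and its bases 2 to 8, the seed, pair with the messenger RNAs it represses. miR-103 and miR-107 are encoded in introns of the pantothenate kinase genes, whose products make coenzyme A, and they share 1 seed. They are known for lowering insulin sensitivity in liver and fat, where they repress caveolin-1, a membrane protein that stabilises the insulin receptor, and they also repress Dicer, the enzyme that cuts miRNA hairpins. In the RefSeq gene table for GRCr8, used for names and neighbours only, Mir103a1 lies inside Pank3, Mir103a2 inside Pank2 and Mir107 inside Pank1. The 3 deposited hairpin sequences, 86, 86 and 87 nt long, were identical to those of RefSeq. No genomic coordinates are given, since the build of the files is not given in the sources used here.

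The RefSeq mature forms (GRCr8) show why the pair is hard to separate. Capitals mark the seed in the first 2 lines and the differing base in the next 2.
miR-103-3p: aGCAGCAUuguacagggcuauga
miR-107-3p: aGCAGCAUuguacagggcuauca
miR-103-3p: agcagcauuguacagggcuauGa
miR-107-3p: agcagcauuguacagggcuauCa
Counted from 1 at the 5′ end, the sole difference is G22C, miR-103 base first. A read that starts at base 1 and stops within the first 21 bases therefore fits both. The 2 miR-103 hairpins carry the same mature form, which lies at positions 52 to 74 of all 3 hairpins. In the table of mature rat miRNAs no other entry had the seed GCAGCAU. All 41 tags lay on the 3p arm, and 0 came from the 5p arm.

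miR-103 and miR-107 together were lower in high glucose when scaled to library size, by about 2-fold. The 3 classes summed to 1504, 970 and 1602 raw counts in high glucose replicates 1 to 3, and to 401, 360 and 276 in low glucose. Raw counts were thus 3.93-fold higher in high glucose, against the 9.31-fold difference in library totals. Scaled with edgeR's TMM factors to CPM, the count relative to library size, the levels were 1571, 799.9 and 1325 CPM in high glucose and 2783, 2325 and 2499 CPM in low glucose. The groups did not overlap, and high glucose replicate 2 was the lowest library. The means were 1232 ± 394 and 2536 ± 231 CPM (SD, n = 3). The pair fell by 1.04 on the log2 scale (SE 0.26, edgeR quasi-likelihood adjusted p = 0.00807), 2.06-fold lower in high glucose. Of the 296 miRNA arms tested in this fit, 21.6% were lower, and 25.3% had all high glucose libraries below all low glucose ones. Over all tested arms the log2 fold change had a median of 0.72, of the opposite sign. Among them are arms listed only in the high glucose libraries, such as miR-129-5p with 126, 190 and 94 counts. The part of library depth in this median was not tested. With upper quartile scaling, which shifted the median over all arms by -0.60, the pair stood at -1.68. With all libraries randomly thinned to 114497 reads, 66 of 162 tested arms were higher and 62 lower, with the 3 classes kept apart. The joined pair then stood at -1.30 (edgeR adjusted p = 0.00193). At full depth but without low glucose replicate 1, the highest library, the adjusted p of the pair was 0.0561 and the call was lost. These are levels relative to the other small RNAs. Fewer copies per cell, fewer of the cells or vesicles that carry the pair, and more of other small RNAs cannot be told apart. The labels do not state that replicates came from separate cultures. The p-values here therefore reflect only how far these libraries differ, which may be technical.

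**Figure D1:**
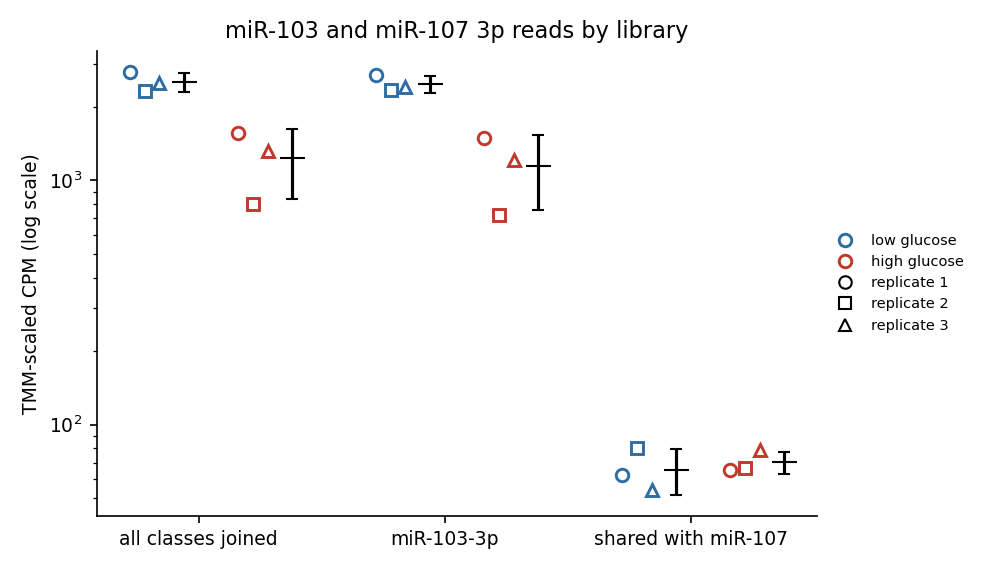
TMM-scaled CPM on a log axis for the 3 classes joined, for miR-103-3p and for the tags shared with miR-107. Symbols are the 3 libraries of each group, and bars are the mean ± SD. Joined reads lie between 2325 and 2783 CPM in low glucose and between 799.9 and 1571 CPM in high glucose, while the groups overlap in the shared class.

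Most of the listed counts belonged to miR-103-3p. The full 23 nt form of miR-107-3p was not among the tags analysed here, and from these rows it cannot be told whether it was present in the libraries, so the level of miR-107 and its share may be understated. Tags listed under miR-103 only held 94.0% of the counts of the pair, the shared class 5.22% and miR-107 alone 0.743%. miR-103-3p stood at 1488, 725 and 1214 CPM in high glucose and 2698, 2337 and 2406 CPM in low glucose, again without overlap. It fell by 1.12 on the log2 scale (SE 0.26, edgeR adjusted p = 0.00699), and without low glucose replicate 1 the adjusted p was 0.0526. In that fit, with the classes apart, 22.2% of 297 tested arms were lower, 41.8% were higher and 25.9% had all high glucose libraries below. Among annotated arms, of which 197 were tested, the joined pair ranked 47, 70 and 52 in high glucose and 33, 37 and 41 in low glucose, with 1 as the most abundant.

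The shared class did not pass the test. Its levels were 65.4, 66.3 and 78.7 CPM in high glucose and 61.9, 80.6 and 53.9 CPM in low glucose, a difference of 0.088 on the log2 scale (SE 0.35, adjusted p = 0.844 by edgeR). The sign turned under other scalings, to -0.52 with upper quartile. It rested on only 9, 12 and 6 counts in the low glucose libraries. As a share of the pair's reads it was 4.34%, 8.51% and 6.04% in high glucose and 2.30%, 3.09% and 2.20% in low glucose, so all high glucose libraries lay above. No background rate over other arms was formed for this share. In high glucose replicate 1 the most read shared tag held only 10 of the 65 shared reads, 0.668% of the pair. The rest lay in rarer tags that no low glucose library listed. After thinning, the most read shared tag was at 0%, 5.88% and 4.65% in high glucose against 2.53%, 3.08% and 2.20%, which overlap. Whether the shared class and miR-103-3p changed differently was not tested.

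miR-107 was scarce among the tags analysed here. Tags listed under it alone held 7, 3 and 26 counts in high glucose and 0, 0 and 2 in low glucose, too few for the filter of the test, so it has no test of its own. Its 4 tags, with a base that does not match the hairpin in capitals, are shown because they hold every read listed under miR-107 alone.
miR-107 tag 1: agcagcattgtacagggctatAc
miR-107 tag 2: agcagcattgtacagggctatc
miR-107 tag 3: attgtacagggctatc
miR-107 tag 4: agcagcattgtacagggctatcT
Tag 1 held 15 reads, all in high glucose replicate 3, and its A is an insertion relative to the hairpin. Tag 2, the RefSeq form without its last base, held 3 and 7 reads in high glucose replicates 2 and 3 and 2 reads in low glucose replicate 3. Tag 3, a fragment that starts at hairpin position 58, held 5 and 4 reads in high glucose replicates 1 and 3. Tag 4, with the mismatch A23T, held 2 reads in high glucose replicate 1. Since the full 23 nt form of miR-107 has no value here, the comparison with miR-103 is closest at 22 nt. Pooled over the 6 libraries, exact tags of 22 nt from position 52 held 216 reads of miR-103 and 12 of miR-107. That is a miR-107 share of 5.26% (exact 95% binomial interval 2.75 to 9.01, for counting error only). The interval takes reads as independent. Tags with a single read are not listed, which may lower the miR-107 count. With all forms counted, the 3441 full-length miR-103 reads included and no counterpart of miR-107, miR-103 was 99.5%, 99.7% and 98.3% of the reads that could be separated in high glucose, and 100%, 100% and 99.3% in low glucose. The difference of these shares did not pass an exact two-sided permutation test (p = 0.3, adjusted p = 0.5 over 5 measures).

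The sequence variants of miR-103-3p were then compared as shares of the reads of the pair. Here the whole read total of each tag is used, while the class counts above sum rounded counts per hairpin and differ from it by at most 13 reads in a library. The 5 most abundant miR-103 tags and the most abundant shared tag are shown because they differ from each other mainly in their ends. Capitals mark a base that does not match the hairpin.
Full length: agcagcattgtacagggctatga
Full length with an added T: agcagcattgtacagggctatgaT
Shorter by 1 base: agcagcattgtacagggctatg
Start 2 bases later: cagcattgtacagggctatga
Last base changed to T: agcagcattgtacagggctatgT
Shared with miR-107: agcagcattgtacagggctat
The full-length form held 980, 625 and 1080 reads in high glucose and 273, 258 and 225 in low glucose. It was 65.4%, 64.8% and 68.0% of the reads of the pair in high glucose, below the 69.6%, 72.5% and 82.4% in low glucose. The form with T at position 24, A24T relative to the hairpin, stood at 118, 76 and 110 reads in high glucose and 3, 9 and 5 in low glucose. Its share was 7.56% ± 0.553 in high and 1.71% ± 0.888 in low glucose (SD, n = 3), and the groups did not overlap. All tags of the pair with a last base mismatched to T together held 10.3% ± 3.019 against 7.04% ± 1.003, and there the groups overlapped. Over other annotated arms that share was 3.39% ± 0.149 against 2.51% ± 0.123 (SD, n = 3), higher in every high glucose library. Uridine added to the 3′ end is a known modification of mature miRNAs, and it is read as T in sequencing.

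The 22 nt form held 65, 25 and 49 reads in high glucose and 25, 38 and 14 in low glucose, a share of 3.34% ± 0.900 against 7.39% ± 2.91 (SD, n = 3). The 23 nt form ending in T, A23T, equals the 22 nt form followed by T. Whether its last base was changed or added cannot be told. This form held 60, 20 and 0 reads in high glucose and 29, 15 and 12 in low glucose, a share of 2.03% ± 2.003 against 5.34% ± 1.79. The shares of the 22 nt form and of A23T were both lower in every high glucose library than in any low glucose one. How often the share of a single tag separates the groups in other arms was not counted. The full-length form, the added T, the 22 nt form and A23T each had the smallest p that 3 against 3 libraries allow in an exact permutation test (p = 0.1, adjusted p = 0.15 over 6 tags), so none passed 0.05. After all libraries were thinned to 114497 reads, only the added T still separated the groups, at 7.34%, 10.3% and 3.88% in high glucose against 0.843%, 3.08% and 1.83%, and the groups overlapped in the other 3. This was a single random draw. It left 177, 68 and 129 reads of the pair in high glucose and 356, 260 and 273 in low glucose, so a few reads decide the separation. The form that starts 2 bases later held 51, 62 and 27 reads in high and 31, 18 and 9 in low glucose, and its shares overlapped (exact permutation p = 0.5). The 21 nt shared form was 0.668%, 8.51% and 5.35% in high glucose and 2.30%, 3.09% and 2.20% in low glucose, with high glucose replicate 1 the lowest and replicate 2 the highest of all.

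**Figure D2:**
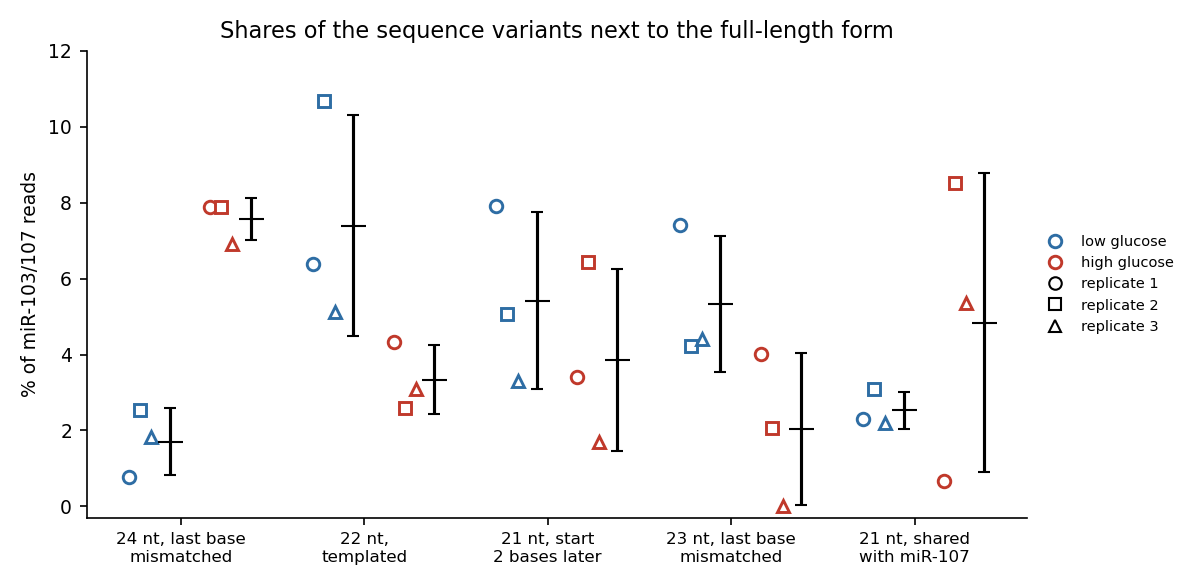
Share of the miR-103 and miR-107 reads, in percent, held by 5 sequence variants in each library, with the mean ± SD of each group. The 24 nt form with a mismatched last base lies between 6.92% and 7.88% in high glucose and at or below 2.53% in low glucose, and the 22 nt form and the 23 nt form with a mismatched last base lie lower in high glucose.

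Read by where they end, a larger share of the miR-103 and miR-107 reads ran past the RefSeq 3′ end in every high glucose library, a description added after the data were seen and given without a test. Of the reads that start at position 52, 14.3%, 12.1% and 11.1% ended past position 74, the RefSeq end, in high glucose, against 1.70%, 2.69% and 1.89% in low glucose. Most of these reads carried the added T, and others ran on into the hairpin or ended in another base. The templated 24 nt form held 42, 15 and 49 reads in high glucose and 3, 0 and 0 in low glucose. Reads that stopped 1 base short of the RefSeq end made a share of 3.895% ± 0.762 with high glucose against 8.17% ± 2.82 (SD, n = 3), and those that stopped 2 bases short 5.54% ± 3.93 against 2.71% ± 0.528. All reads short of the RefSeq end made up 10.3% ± 2.26 and 10.9% ± 3.35, and the groups overlapped. In the thinned libraries, which held 177, 68 and 129 reads of the pair in high glucose, 11.8%, 19.4% and 8.06% still ended past the RefSeq end, above the 0.938%, 3.24% and 1.89% of low glucose. For comparison, 51 other annotated arms had at least 100 reads from the RefSeq start in every library. In 10 of them, 19.6%, all high glucose libraries lay above all low glucose ones in this share and in 13 all lay below, with a median difference of -0.71 percentage points. The pair differed by 10.4 points, and 3 arms had a larger difference in the same direction. Several arms differed by more in the other direction. For example, miR-122-5p stood at 2.80% in high and 26.8% in low glucose, and miR-23a-3p at 27.0% and 47.1%. Pooled over 312 other annotated arms, which gives the abundant ones most weight, the share was 33.0% ± 4.97 in high and 58.0% ± 2.22 in low glucose.

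**Figure D3:**
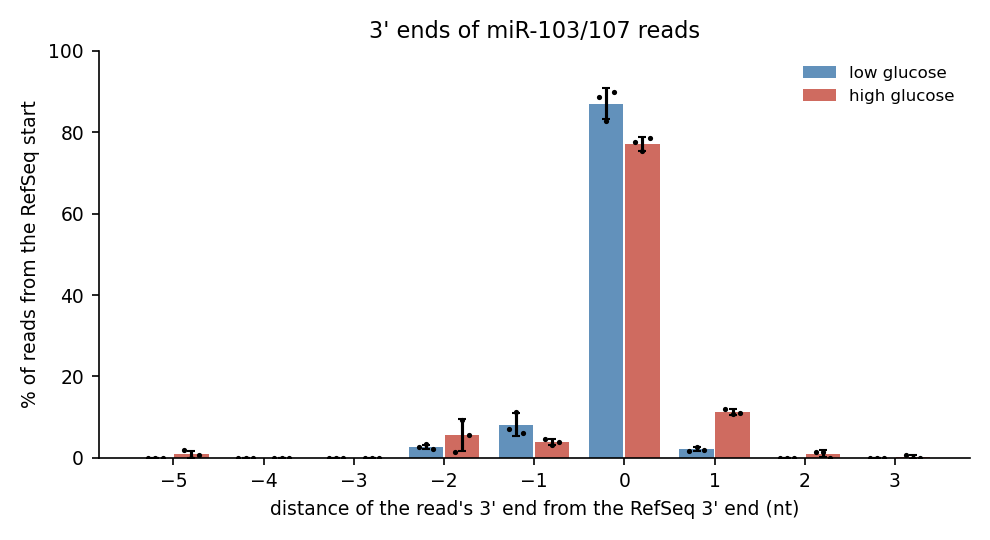
Share of reads from the RefSeq start, in percent, by the distance of their 3′ end from the RefSeq end in nt. Bars are group means, error bars are SD and dots are libraries. Ends 1 base past the RefSeq end reach 11.3% with high and 2.10% with low glucose, and ends 1 base short 3.895% and 8.17%.

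The mean length of all reads of the pair showed no such separation: it was 22.7, 22.7 and 22.6 nt in high glucose and 22.7, 22.7 and 22.8 nt in low glucose (exact permutation p = 0.4). Over other annotated arms it was 22.25, 22.01 and 22.14 nt in high and 22.43, 22.46 and 22.47 nt in low glucose, without overlap. Reads with the RefSeq 5′ end were 92.1% ± 1.28 of the pair in high and 93.5% ± 3.34 in low glucose (SD, n = 3, exact permutation p = 0.6). Starting 2 bases later turns the seed into AGCAUUG, which no mature rat miRNA of the table carries, and tags with it held 209 reads. A fragment from position 58, attgtacagggctatga, held 29, 6 and 42 reads in high and 5, 4 and 0 in low glucose. Mismatched reads of any kind were 18.2%, 13.5% and 12.7% of the pair in high glucose and 10.97%, 7.58% and 6.23% in low glucose, with no overlap (exact permutation p = 0.1, adjusted p = 0.5 over 5 measures). After thinning they were 12.4%, 22.1% and 6.20% against 10.4%, 7.31% and 6.23%, which overlap. In other annotated arms mismatched reads were 12.9% ± 0.128 in high and 10.7% ± 0.361 in low glucose (SD, n = 3).

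The remaining tags were rare. Of the 41, 5 were listed in all 6 libraries, 21 in a single library, and 29 in high glucose alone with 316 of the 5072 reads. Of all 9522 tags, a high glucose library listed 4916 to 5545 and a low glucose library 1817 to 1968. How many of all tags were in high glucose alone was not counted, so the 29 have no background. The low glucose libraries are shallower, and a tag with 1 read is not listed. Internal mismatches or insertions were listed in high glucose alone at full depth, but after thinning in high glucose replicate 3 alone, at 2.33% of the pair. The most read were G17T with 36 reads and C13T with 22. Within the seed, G5T held 14 reads in high glucose replicate 2, and C3T, G2A and C6T held 4, 3 and 3 in high glucose replicate 3. Hardly any read could tell the miR-103 hairpins apart: 3 of the tags that run past position 75 were listed only under rno-mir-103-2, with 32 reads, all in high glucose replicate 1.

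The relatives of the pair share the bases AGCAGC at or next to the 5′ end. In miR-103 this core starts at base 1, and in the miR-15 and miR-16 group at base 2, so that the seeds are offset by 1 base. These miRNAs restrain the cell cycle, and the sequences below, with the core in capitals, are those of the tested arms that hold this core.
miR-103-3p: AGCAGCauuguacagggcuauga
miR-16-5p: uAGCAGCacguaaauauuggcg
miR-15b-5p: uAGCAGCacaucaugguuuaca
miR-503-5p: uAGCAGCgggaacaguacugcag
miR-322-5p: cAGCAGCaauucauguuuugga
Of 7 related hairpins, 8 arms were tested, of which 3 were higher and 3 lower. The 3 lower ones were 5p arms with the core. From low to high glucose, miR-503-5p went from 835 ± 145 to 270 ± 34.8 CPM and changed by -1.63 on the log2 scale (SE 0.22, adjusted p = 0.000612 by edgeR). miR-16-5p went from 383 ± 112 to 132 ± 32.8 CPM (log2 fold change -1.54, edgeR adjusted p = 0.00338). With its most abundant sequence only, the value was -0.80 and the call was lost. miR-15b-5p went from 81.3 ± 15.6 to 16.9 ± 3.48 CPM (SD, n = 3), a log2 fold change of -2.27 on 7 to 20 counts per library. miR-322-5p did not pass, with 22.6 ± 13.9 CPM after high and 48.04 ± 36.8 CPM after low glucose (edgeR adjusted p = 0.286). The 3 higher arms were the 3p arms miR-322-3p, miR-195-3p and miR-503-3p, named after their values were seen, while miR-15b-3p was not called. miR-322-3p was the most abundant of the 8 arms, at 2883 ± 464 CPM after high and 1804 ± 308 CPM after low glucose (SD, n = 3). Its level was thus far above that of miR-322-5p. miR-322-3p had a log2 fold change of 0.67 whose call was lost with each other scaling and with DESeq2. miR-195-3p and miR-503-3p had 2 and 4 counts in all of low glucose, each in replicate 2 alone. With upper quartile scaling 1 of the 8 arms was higher and 3 were lower. Across all tested arms 124 of 296 (41.9%) were higher and 64 (21.6%) lower, and the median log2 fold change of the relatives was -0.54 beside 0.72.

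**Figure D4:**
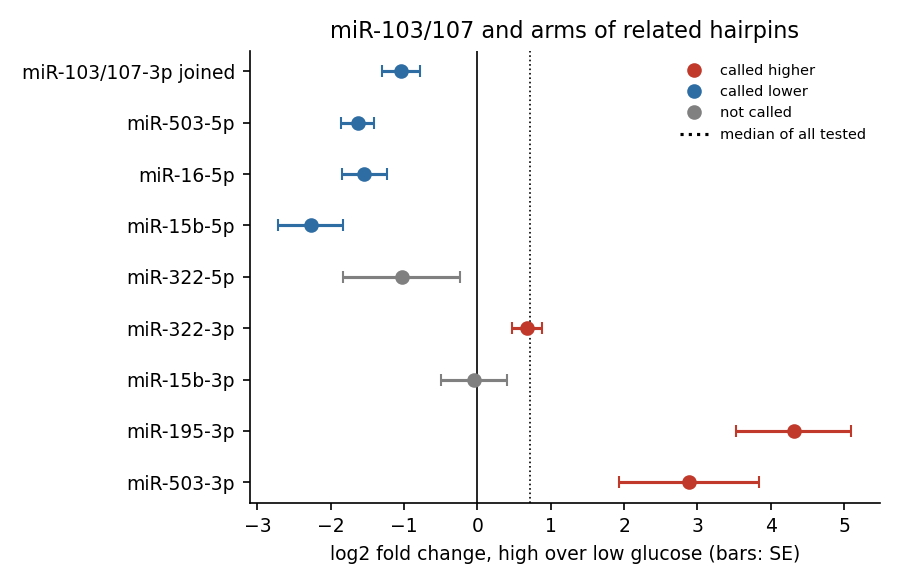
log2 fold change of high over low glucose with its SE for the joined miR-103 and miR-107 reads and the 8 tested arms of related hairpins, coloured by call. The joined pair lies at -1.04, near miR-322-5p and above miR-503-5p, miR-16-5p and miR-15b-5p, and the dotted line marks the median of 0.72 over all tested arms.

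Other miRNAs tied to insulin action or glucose metabolism were called higher at the rate of all arms. Of 33 such miRNAs 31 arms were tested, of which 13 (41.9%) were higher and 4 (12.9%) lower, beside 41.9% and 21.6% of all tested arms. Their median log2 fold change was 0.91, beside 0.72 over all tested arms. With upper quartile scaling 11 were higher and 11 lower. The list holds many let-7 arms, since let-7 also lowers insulin sensitivity, by repressing the insulin receptor pathway. Its 3 most abundant arms were let-7c-5p, at 122929 ± 21540 CPM after high and 15158 ± 1465 CPM after low glucose, let-7b-5p, at 65453 ± 14667 and 11481 ± 491 CPM, and let-7g-5p, at 17344 ± 3238 and 36207 ± 468 CPM (SD, n = 3). The first 2 were higher, 8.11-fold and 5.70-fold (edgeR adjusted p = 3.12e-05 and 6.03e-05), and let-7g-5p was lower (log2 fold change -1.06, edgeR adjusted p = 0.0014).

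By the distance between log2 CPM values over the 6 libraries, each centred on its own mean, the annotated arms most like the joined pair were let-7g-5p (distance 0.375), miR-21-5p (0.572) and miR-23a-3p (0.698), of 196 compared. From low to high glucose miR-21-5p, the most abundant tested arm by group mean, went from 416516 ± 48732 to 175128 ± 35352 CPM, and miR-23a-3p from 3608 ± 327 to 1238 ± 429 CPM (SD, n = 3). In all 3, as in the pair, high glucose replicate 2 was the lowest library. The likeness is a description over 6 libraries that fall into 2 groups, and the groups did not overlap in any of the 3.

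No miRNA defines Schwann cells, so the labelled cell type could not be checked this way. Markers of other cell types differed between the groups. The 2 tested erythroid arms, miR-451-5p and miR-486-5p, were lower in high glucose, and the erythroid list summed to 770 to 963 CPM there against 3132 to 6465 CPM in low glucose. Of 4 tested neuronal arms 2 were higher and 1 lower (sums of 16839 to 23152 and 7087 to 9380 CPM), and both liver arms were higher (9273 to 15741 and 3080 to 4744 CPM), where 41.9% of all tested arms were higher and 21.6% lower. Leukocyte miRNAs had 0 of 3 arms called by edgeR, 0 at an unadjusted p under 0.05 and 0 by DESeq2, at 50.5 to 252 and 104 to 163 CPM, and the retinal list had 1 tested arm, lower, at 61.03 to 117 and 64.6 to 136 CPM. The muscle list had no tested arm and summed to 0 to 56.9 CPM with high glucose and 0 with low. The part of any of these in the lower level of miR-103 was not tested.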

How the data were processed

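The authors' deposited files hold raw counts per tag and hairpin, per the file headers. By their values, the reads of a tag listed under several hairpins are divided among them and rounded. Tools listed in the submitters' processing notes, with no role given, are cutadapt 1.9.3 and Novoalign 3.02.12. The listed tags have at least 2 reads, 16 to 40 nt and at most 1 mismatch, insertion or deletion. The sum per mature arm joined copies and hairpins of identical sequence, and a tag belongs to the arm, before or after the hairpin midpoint, that holds its centre. This gave 933 arms. The test was edgeR 4.0.16 quasi-likelihood (R 4.3.3) with TMM scaling, filterByExpr (minimum count 10) and robust fitting, with p-values adjusted over all tested arms by Benjamini-Hochberg and a threshold of 0.05. Each SE is the absolute log2 fold change over the root of its F value. The fit was tested on simulated data. DESeq2 1.42.0 was an alternative. Shares were compared with SciPy 1.17.1 (Python 3.11.15, pandas 2.3.3, NumPy 2.4.6, matplotlib 3.10.9), by exact two-sided permutation.

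The members and lists were chosen with earlier results of these data known. Named are all classes of the pair, the 5 most read tags per class, tested arms of the relatives with the AGCAGC core, the 3 most abundant arms of the insulin list and the 3 nearest arms. For tags of the shared class only the most read is described. The counts of reads past the RefSeq end and of tag shares were added after the data were seen, as was an alternative with the read totals of the tags. No pairing by replicate number was seen: same-numbered libraries had correlations of 0.045, -0.00012 and -0.031 in log2 CPM centred on the group means. Low counts pull such values toward 0, so they cannot settle whether the libraries were paired.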

Additional observations from a re-analysis of the deposited data

How the results depend on the processing

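The joined pair kept its lower call under 13 alternatives that used all libraries, from -1.68 to -0.98 on the log2 scale, and miR-103-3p under 14, from -1.73 to -1.06. Leaving out each library gave -1.29 to -0.91 (edgeR adjusted p 0.00317 to 0.0561) and -1.37 to -0.96 (0.00277 to 0.0526). Both calls were lost only without low glucose replicate 1, at -0.94 and -0.99. With the replicate block the pair stood at -1.09 and miR-103-3p at -1.18, both still called, and 104 arms were higher and 58 lower. Whether the replicate numbers pair the libraries is not settled by their correlations.

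The shared class, never called, turned to -0.52 with upper quartile scaling, -0.054 with relative log expression, -0.053 with total counts, -0.054 with DESeq2, -0.064 with exact alignments, -0.069 with tags of 5 or more reads and -0.34 with its most abundant sequence only. Leaving out libraries gave -0.051 to 0.41, below 0 without replicate 3 of either group. It did not pass the filter after thinning. miR-107-3p was untested in the main fit. It reached 0.91 (SE 2.20) with no filter, and 0.29 (SE 0.54) when shared tags were divided evenly. A share for its main sequence was not formed, since 2 libraries listed none.

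Over all arms, 78 were higher with annotated hairpins only and 40 were lower with the most abundant sequences only, with fewer arms tested each time. After thinning, 66 of 162 tested arms were higher and 62 lower. Leaving out libraries gave 79 to 117 higher, fewest without high glucose replicate 2, and 41 to 59 lower, fewest without low glucose replicate 2. With upper quartile scaling 91 were higher and 93 lower, in place of 124 and 66. The difference (high minus low) in the main sequence's share of miR-103-3p was -0.474 points with exact alignments in place of -5.84, and -1.88 without low glucose replicate 3, which also moved the full-length share of the pair from -8.77 to -4.98. The difference in the share of the 22 nt form moved from -4.05 to -2.41 points without low glucose replicate 2. The difference in mean length was -0.161 nt with exact alignments and 0.0289 nt after thinning in place of -0.073 nt. The difference in the share with the RefSeq 5′ end ran from -3.19 to 0.138 points when libraries were left out, positive without low glucose replicate 3. The calls of miR-322-3p and miR-503-3p were lost under 10 of 19 and 5 of 14 alternatives, that of miR-16-5p under 1, its most abundant sequence only. Depth limits low glucose most.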
